A study of Rattus norvegicus with 69 samples.

Results

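The home cage (HC) animals of the series are the baseline of CA1 gene expression, and they came from cohorts 1 and 2. They were chosen by the cohort given in each title. Of 69 arrays in all, 17 were HC arrays, 5 from cohort 1 (subjects 1 to 5) and 12 from cohort 2 (subjects 6 to 17). All were from male Fischer 344 rats, 3 to 5 months old per the study's methods, kept in the home cage without deprivation or stress exposure. Each array held the CA1 RNA of 1 animal. Per the methods, training on a one-way active avoidance task was given to the HC and the sleep-deprived animals of cohort 1. The stress animals of cohort 1 are not named as trained, and for cohort 2 no such training is described. The methods also report that the background signal of the arrays was lower in cohort 2 than in cohort 1. Their authors noted no influence of training on stress or microarray measures, with those data not shown. Training and whatever else differed between the cohorts cannot be told apart in this design. For comparison, cohorts 1 and 2 each also held 8 animals deprived of sleep for 24 hours (24SD), and 8 and 12 deprived for 72 hours (72SD). In cohort 1 there were also 10 and 6 animals stressed for 24 and 72 hours by an unfamiliar environment without being kept from sleep (24NES and 72NES).

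CA1 is the output field of the hippocampal trisynaptic circuit. Its pyramidal neurons receive CA3 input through Schaffer collaterals, mostly by AMPA and NMDA type glutamate receptors, and the tissue around them holds interneurons, astrocytes, myelinated axons, microglia and vessels. Release at these synapses needs SNARE proteins and the vesicle proteins that dock and prime them. Activity induces immediate early genes in pyramidal neurons, clock genes cycle over the day, and corticosterone acts through receptors that are abundant in this field. Values below are log2 of the MAS5 signal of a probe set, a group of short oligonucleotides on the Affymetrix array that reports 1 transcript. Differences are cohort 2 minus cohort 1 on this log2 scale, ± standard error (SE), so that 1 unit is a factor of 2. They came from limma's moderated test, with Benjamini-Hochberg adjustment over the 2696 genes tested and a threshold of 0.05. Signals of different probe sets are not compared as levels.

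The 2 cohorts did not overlap on the first axis of variation, but 2 arrays of cohort 2 lay between cohort 1 and the rest. The first principal component of the 17 arrays held 31.4% of the variance and placed cohort 1 between -13.2 and -10.2 and cohort 2 between -6.51 and 9.56. Arrays of subjects 6 and 17 of cohort 2 stood apart from the other 10 of their cohort. They lay at -6.51 and -4.04 on that component, against 2.20 to 9.56 for the other 10. Their mean correlation over genes with their own cohort was 0.951 and 0.953, and with cohort 1 it was 0.959 and 0.957. In the other 10 the mean correlation with the own cohort was between 0.964 and 0.973, and with cohort 1 between 0.943 and 0.957. Subjects 12 and 14, at 0.957 with cohort 1, were level with subject 17 there but correlated more with their own cohort (0.967 and 0.968). Both are kept under their labels in the values below, and counts of list members without them are given where they differ. The median signal of an array averaged 456 ± 17.6 (standard deviation, SD, n = 5) in cohort 1 and 455 ± 14.2 (SD, n = 12) in cohort 2. RNA integrity was read from 3′ over 5′ probe sets, and for GAPDH this ratio was 0.979 to 1.18 in cohort 1 and 0.965 to 1.12 in cohort 2. For beta actin it was 0.901 to 1.40 and 0.993 to 1.67. The tenth percentile of signals averaged 32.5 ± 2.23 (SD) in cohort 1 and 29.0 ± 2.37 (SD) in cohort 2, with p = 0.0124 by an exact two-sided permutation test and 0.0560 after adjustment over 9 array measures. The control probe set for 5S ribosomal RNA had a log2 signal of 6.69 to 7.79 in cohort 1 and 8.18 to 9.77 in cohort 2. This difference of 2.00 had p = 0.000162 by the same exact test, the smallest that 6188 splits allow, and 0.00145 after adjustment. Subjects 6 and 17 had 8.65 and 8.73, against 8.18 to 9.77 in the other 10 of their cohort, and so lay above every array of cohort 1. Whether the cohort labels of these 2 arrays are right was not tested beyond these values. Adjusted p was between 0.219 and 0.959 for the other 7 measures. The part of these array differences in the gene differences below was not tested.

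**Figure D1:**
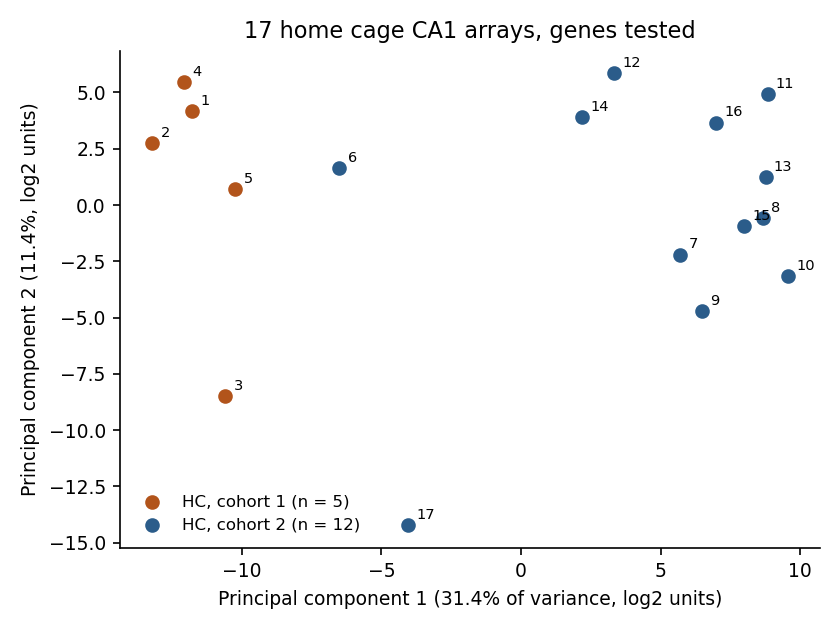
First and second principal components of the 17 HC arrays over 2696 genes, in log2 units, with 1 point per rat labelled by its subject number and coloured by cohort. Cohort 1 lies between -13.2 and -10.2 on the first axis, and subjects 6 and 17 lie at -6.51 and -4.04, between cohort 1 and the other 10 arrays of cohort 2.

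The tissue was checked against markers of the hippocampal fields. Of 11 listed CA1 markers, 6 were on the array and 5 passed the signal filter, which kept the upper 50% of probe sets (a signal of about 440 and above). Mean signal was 27298 in cohort 1 and 17287 in cohort 2 for Hpca (hippocalcin, a calcium sensor of pyramidal neurons), 5056 and 4240 for the AMPA receptor subunit Gria1, and 6078 and 8479 for Itpka (an inositol trisphosphate kinase of dendritic spines). Spink8, a further CA1 marker, was near background at 24.6 and 22.2. The summed signal of the CA1 list ran from 38689 to 47134 in cohort 1 and from 31824 to 42749 in cohort 2. Hpca was the largest part of this sum. Hpca and Gria1 had lower means in cohort 2, whereas Itpka and Pou3f1 (1621 and 3553) had higher ones. The sums of different lists are not compared as levels. CA3 markers on the array summed to 5650 to 7762 and 4155 to 6583, and dentate markers to 10197 to 12395 and 9185 to 14965. The choroid plexus list summed to 2686 to 4679 and 2941 to 4098. In bulk tissue, fewer cells of a type and less RNA per cell cannot be told apart.

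In HC animals, 802 of 2696 genes (29.7%) differed between the cohorts, and 1109 (41.1%) had an unadjusted p below 0.05. Of these, 414 (15.4%) were higher and 388 (14.4%) were lower in cohort 2. The median size of the difference was 0.44 among the 802 and 0.20 over all genes, and 15 genes (0.556%) differed by at least 1 log2 unit. The median of the signed difference over all genes was -0.0030, and within 8 bins of signal it ranged from -0.036 to 0.037. Values of the cohorts did not overlap for 195 genes (7.23%), which all passed the test, and for 190 of them (7.05% of all) the difference had the same sign in the 24SD and 72SD animals. Leaving out subjects 6 and 17 gave 1018 calls (37.8%), 515 higher and 503 lower, with 792 of the 802 among them in the same direction. These arrays lay nearest to cohort 1 on the first axis, and calls rose over all genes. List counts of both directions together are therefore to be read against 37.8% without them and against 29.7% with all arrays. A count in 1 direction without them is to be read against 515 higher or 503 lower of 2696. Leaving out cohort 1 subject 2 gave 623.

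The largest difference of the 2696 genes was that of Casp2, which encodes the initiator protease caspase-2. Log2 signals in subjects 1 to 5 of cohort 1, in that order as for each gene below, were 7.26, 8.49, 7.43, 8.52 and 7.94. In cohort 2 they ran from 8.96 to 9.90 with a median of 9.60. The groups did not overlap, and the difference of 1.65 ± 0.18 was 3.13-fold (adjusted p = 1.11e-05). A second Casp2 probe set that passed the signal filter had a difference of -0.18 ± 0.17 (adjusted p = 0.501 over all probe sets), so the 2 reports of this gene disagreed.

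Next in size among genes higher in cohort 2 without overlap was Pou3f1 (Oct6), a POU domain transcription factor of CA1 pyramidal neurons. Its values were 10.69, 10.83, 10.75, 10.46 and 10.58 in cohort 1 and 11.11 to 12.14 with a median of 11.85 in cohort 2. It was 2.19-fold higher in cohort 2 (difference 1.13 ± 0.13, adjusted p = 1.85e-05), with subject 17 the lowest of its cohort at 11.11. The RNA helicase and splicing factor Ddx46 had 9.76, 9.87, 9.81, 9.71 and 9.83 in cohort 1 and 10.56 to 11.01 with a median of 10.74 in cohort 2. Its gap between groups was wide against their spread, and the difference was 0.96 ± 0.081 (adjusted p = 7.21e-07). The kinase subunit Camk2d had 9.53, 9.72, 9.90, 9.66 and 9.74 in cohort 1 and 10.07 to 11.16 with a median of 10.60 in cohort 2, a difference of 0.92 ± 0.14 (adjusted p = 0.000175).

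Also higher in cohort 2 without overlap was Eif2ak3 (PERK), the endoplasmic reticulum stress kinase that limits initiation, which differed by 1.01 ± 0.26 (adjusted p = 0.00792). It had 1 low array in cohort 1, subject 3 at 6.86, where the other 4 were between 8.96 and 9.20, and without subject 3 the difference was 0.56 (adjusted p = 0.00232). Eif3m, a subunit of initiation factor 3, differed by 0.97 ± 0.16 (adjusted p = 0.000185). Differences were 0.95 ± 0.19 for Rabep2, a Rab5 effector of endosomes, 0.95 ± 0.14 for the methyl-CpG binding repressor Zbtb38 and 0.90 ± 0.14 for Oxr1, known for resistance to oxidative stress. They were 0.89 ± 0.10 for Spon1 (F-spondin, a secreted matrix protein of axon growth), 0.87 ± 0.15 for the decapping coactivator Pnrc2 and 0.82 ± 0.075 for the dynein chain Dync1i2. Adjusted p for these 6 lay between 1.63e-06 and 0.00101.

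Among genes lower in cohort 2 without overlap, the largest difference was that of Ccnd2 (cyclin D2, which drives the G1 phase of the cell cycle). Cohort 1 had 11.97, 12.23, 11.88, 11.87 and 12.10, and cohort 2 9.95 to 11.81 with a median of 10.50. It was 2.59-fold lower (difference -1.37 ± 0.23, adjusted p = 0.000264), and a second probe set gave -1.17 ± 0.23. Subjects 6 and 17, at 11.66 and 11.81, lay just below cohort 1, while the other 10 were at 9.95 to 10.71. Without these 2 arrays the difference was -1.59 ± 0.11. The netrin receptor Unc5a, an axon guidance gene, had 10.67, 10.92, 10.95, 10.77 and 10.96 in cohort 1 and 8.60 to 10.58 with a median of 9.60 in cohort 2, a difference of -1.26 ± 0.23 (adjusted p = 0.000567). Here too subjects 6 and 17 were the highest of their cohort, at 10.54 and 10.58.

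Pfkl, the liver type phosphofructokinase of glycolysis, had 12.21, 12.49, 12.60, 12.33 and 12.34 in cohort 1 and 10.90 to 12.20 with a median of 11.12 in cohort 2 (difference -1.09 ± 0.18, adjusted p = 0.000264). Another 9 genes were among the 12 named for their size and lower in cohort 2. Mpp3 and Dlgap3, scaffold proteins of cell junctions and of the postsynaptic density, differed by -1.03 ± 0.19 and -1.00 ± 0.16. Grik5, a kainate receptor subunit, differed by -0.93 ± 0.18, Epn1 (epsin, of clathrin coats) by -0.92 ± 0.14, and the Cdc42 effector kinase Cdc42bpb by -0.91 ± 0.16. Cplx2, Syt11, Syngr1 and Rab3a belong to the vesicle release machinery and are given with it.

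**Figure D2:**
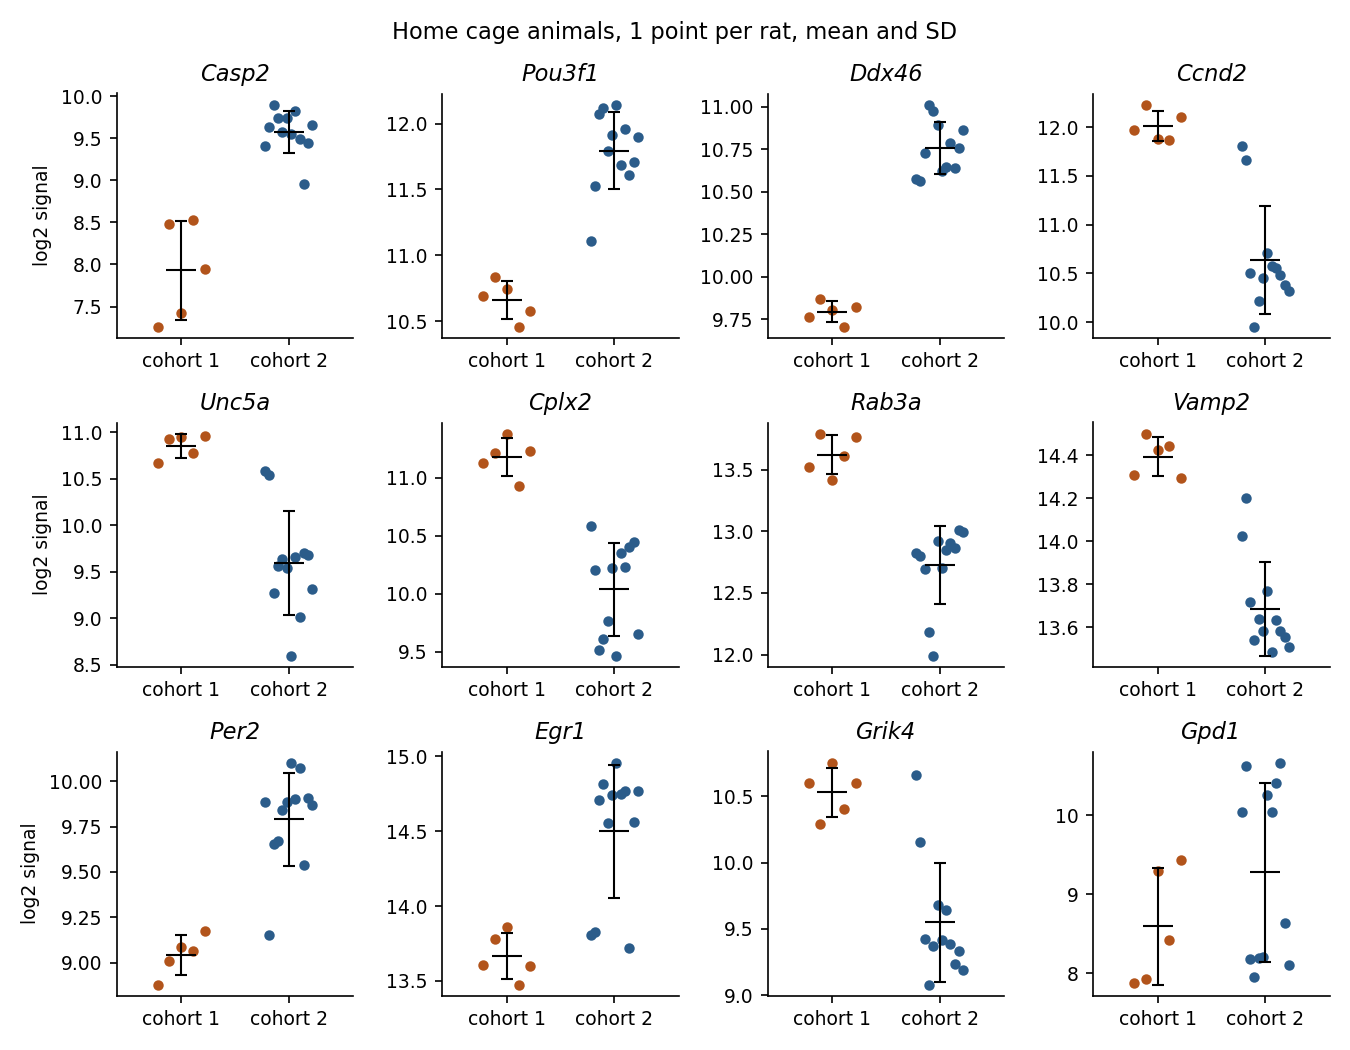
Log2 signal of 12 genes in each HC rat of cohort 1 (n = 5) and cohort 2 (n = 12), with 1 point per rat and the mean and SD of each group as bars; each panel has its own axis. Casp2, Pou3f1 and Ddx46 are higher and Ccnd2, Unc5a, Cplx2, Rab3a and Vamp2 lower in cohort 2 without overlap, whereas Per2, Egr1, Grik4 and Gpd1 overlap.

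A pair of genes outside that rule was added after its values were seen, because the arrays that stand apart decided their overlap. Nnat (neuronatin, an imprinted proteolipid of the endoplasmic reticulum) had 14.14, 14.41, 14.51, 14.04 and 14.47 in cohort 1. In cohort 2, subjects 6 and 17 had 14.19 and 14.21, within the range of cohort 1, while the other 10 were at 11.84 to 12.95. The difference over all 12 was -1.62 ± 0.32 (adjusted p = 0.00109), and without the 2 arrays it was -1.93 ± 0.17. Rgs4, which shortens G protein signalling, had 8.67, 9.20, 8.94, 8.60 and 9.24 in cohort 1, 8.26 and 8.76 in subjects 6 and 17, and 9.67 to 10.84 in the other 10. Its difference was 1.13 ± 0.34 (adjusted p = 0.0172), and 1.44 ± 0.19 without the 2 arrays. Over the 1018 genes called without them, subject 6 lay nearer to the mean of cohort 1 than to that of the other 10 for 567 genes (55.7%) and subject 17 for 503 (49.4%). Both did so for 340 genes, and neither for 288. The share was larger for genes lower in cohort 2, at 64.2% and 61.6%, than for genes higher in cohort 2, at 47.4% and 37.5%. These genes were chosen for separating cohort 1 from the other 10 arrays, and no such share was taken for other arrays left out. The shares are therefore a description and do not show whether the arrays are unusual.

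More genes of presynaptic vesicle release were lower than higher in cohort 2. Of 42 listed genes, 30 were tested, 16 of them were lower, 2 were higher and 12 did not pass. Over all genes 14.4% were lower and 15.4% higher. The median difference was -0.40 against -0.0030 over all genes. Without subjects 6 and 17 the counts were 20 lower and 2 higher, where 37.8% of all genes passed in either direction. The SNARE protein Vamp2 (synaptobrevin), which bridges vesicle and plasma membrane, had 14.31, 14.50, 14.42, 14.44 and 14.29 in cohort 1 and 13.48 to 14.20 with a median of 13.61 in cohort 2. The groups did not overlap, the difference was -0.71 ± 0.10 (adjusted p = 0.000132), and its second probe set gave -0.40 ± 0.12. Rab3a, the vesicle GTPase, had 13.52, 13.79, 13.41, 13.61 and 13.76 in cohort 1 and 11.99 to 13.01 with a median of 12.84 in cohort 2, a difference of -0.89 ± 0.14 (adjusted p = 0.000185). The complexin Cplx2, a clamp on SNARE fusion, had 11.13, 11.21, 11.38, 10.93 and 11.22 in cohort 1 and 9.47 to 10.58 with a median of 10.21 in cohort 2. It was 2.20-fold lower in cohort 2 (adjusted p = 0.000162), and Cplx1 was lower by a log2 difference of -0.83 ± 0.21. For both SNARE regulators the difference was larger than the SD in cohort 2, which was 0.40 for Cplx2 and 0.49 for Cplx1. The values of Cplx1 overlapped, with subject 6 (12.77) inside cohort 1.

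Further members of the list were lower and passed the test. Of these, Syngr1 (synaptogyrin) differed by -0.92 ± 0.14 and at its second probe set by -1.15 ± 0.35. Syp (synaptophysin) differed by -0.56 ± 0.11, and the synapsins Syn1 and Syn2, which tether vesicles to actin, by -0.90 ± 0.16 and -0.55 ± 0.17. The synaptotagmin Syt11 had 11.31, 11.00, 11.07, 11.07 and 11.25 in cohort 1 and 9.18 to 10.82 with a median of 10.01 in cohort 2 (difference -1.01 ± 0.20, adjusted p = 0.00101). Dnm1, the dynamin of vesicle retrieval, differed by -0.49 ± 0.10 without overlap and Stx1a (syntaxin) by -0.51 ± 0.14. The exceptions that passed the test upward were Rab3b and the exocyst subunit Exoc5. Snap25 and Syt1, the partner SNARE and the calcium sensor of fast release, gave -0.26 ± 0.12 and 0.10 ± 0.21 and did not pass (adjusted p = 0.119 and 0.754), but Snap25 passed without subject 17 (-0.30, adjusted p = 0.0430). In the general neuronal markers, 5 of 13 tested were lower and 1 was higher, with a median of -0.24, or 8 and 1 without subjects 6 and 17, and the list summed to 194381 to 230602 in cohort 1 and 152938 to 205977 in cohort 2. Of the 5, Syn1, Syn2 and Syp are also counted in the vesicle release list, so the lists are not separate. The others were the axonal glycoprotein Thy1 and the neurofilament Nefm (-0.31 ± 0.10). The dendritic Map2 was higher without overlap (0.39 ± 0.071). With all arrays, Snap25, Syt1, Gap43, Nefl and Nefh of the neuronal list did not pass. Without cohort 1 subject 2 the calls of Syn2, Nefm and Thy1 ended (adjusted p = 0.0505, 0.0763 and 0.0711), and those of Nefm and Thy1 ended without 1 and 7 further arrays.

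Glutamate receptor subunits moved in both directions. Of 15 tested, 3 were higher and 5 lower, against 15.4% and 14.4% of all genes. The median was -0.25, which was 0.068 with no signal filter. Without subjects 6 and 17, 3 were higher and 7 lower, where 37.8% of all genes passed in either direction. The AMPA subunit Gria2, which limits calcium entry through the channel, had 12.11, 12.12, 12.12, 12.07 and 12.19 in cohort 1 and 12.32 to 12.85 with a median of 12.63 in cohort 2. That was a difference of 0.50 ± 0.076 without overlap (adjusted p = 0.000156), and a second probe set gave -0.038 ± 0.12. Gria3 was higher by 0.58 ± 0.12, whereas Gria1 gave -0.25 ± 0.11 and did not pass (adjusted p = 0.0840, or 0.0440 without subject 17). Grin1, the obligatory NMDA subunit, was lower without overlap (-0.58 ± 0.13, adjusted p = 0.00317) and its second bright probe set gave -1.21 ± 0.20. Grik4, a kainate subunit known from CA3, had 10.60, 10.29, 10.75, 10.40 and 10.60 in cohort 1 and 9.08 to 10.66 with a median of 9.40 in cohort 2 (difference -0.98 ± 0.19, adjusted p = 0.000956). Subject 6 had 10.16 and subject 17 10.66, whereas the other 10 were at 9.08 to 9.68. Of the 3 tested CA3 markers, Bok was also lower (-0.49 ± 0.12) and the kinase Prkcd gave 0.065 ± 0.10 (adjusted p = 0.655). Homer3, whose mean over all 69 arrays was under the filter, had mean signals of 540.4 and 269. How far the position of the dissection differed between cohorts was not tested.

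Field markers did not share 1 direction. In the CA1 list Pou3f1 and Itpka were higher (1.13 ± 0.13 and 0.48 ± 0.12), Hpca was lower (-0.66 ± 0.12, adjusted p = 0.000755), and Camk2a, a kinase of excitatory synapses, gave 0.11 ± 0.14 (adjusted p = 0.577). A second Camk2a probe set gave -0.52 ± 0.14 (adjusted p = 0.0167), against the first. The dentate list held the calcium buffer Calb1 (0.56 ± 0.16) and Il1rap (0.77 ± 0.16), both higher, and prodynorphin (Pdyn), lower by a log2 difference of -0.34 ± 0.11. Without subjects 6 and 17, 2 CA1 markers were higher and 2 lower. In the CA2 list 0 of 3 passed by limma, and 0 of the 3 had an unadjusted p below 0.05. The call of Pdyn ended without subject 1, 2 or 4 of cohort 1 (adjusted p = 0.0909, 0.0993 and 0.0512).

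The GABA receptor subunit Gabrb2, of the inhibitory chloride channel, was higher without overlap (0.79 ± 0.13, adjusted p = 0.000236) and the metabotropic Gabbr2 was lower (-0.35 ± 0.12), while 7 of 9 did not pass. This test called 29.7% of all genes with all arrays, and 37.8% when subjects 6 and 17 were left out. Of 14 interneuron markers, the calcium buffer Pvalb (0.57 ± 0.12) and the peptide Vip (0.63 ± 0.20) were higher, and Slc32a1, the vesicular GABA transporter, was lower (-0.60 ± 0.13), or 4 higher and 1 lower without subjects 6 and 17. Gad1, which makes GABA, gave 0.21 ± 0.10 (adjusted p = 0.111, or 0.0306 without subject 7). The calls of Vip and Gabbr2 ended without 2 and 6 of the arrays in turn (adjusted p up to 0.0580 and 0.0820). Among potassium channels 1 of 17 was higher (Kcnj4, 0.50 ± 0.14) and 2 were lower (Kcnab2, -0.42 ± 0.10, and Kcnh2, -0.34 ± 0.086), or 4 and 3 without subjects 6 and 17. Of 15 postsynaptic scaffolds and kinases, 4 were higher (Camk2d, Homer1, Prkcb and Dlg1) and 3 lower (Prkce, Dlg2 and Prkcz), or 5 and 3 without subjects 6 and 17. For the scaffold Homer1 the difference was 0.43 ± 0.084 at the brightest probe set, and 5 further ones gave 0.32 to 0.66. For neurotrophins and their receptors 0 of 12 passed by limma, 0 had an unadjusted p below 0.05, and the median was -0.15, while 1 was lower without subjects 6 and 17.

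**Figure D3:**
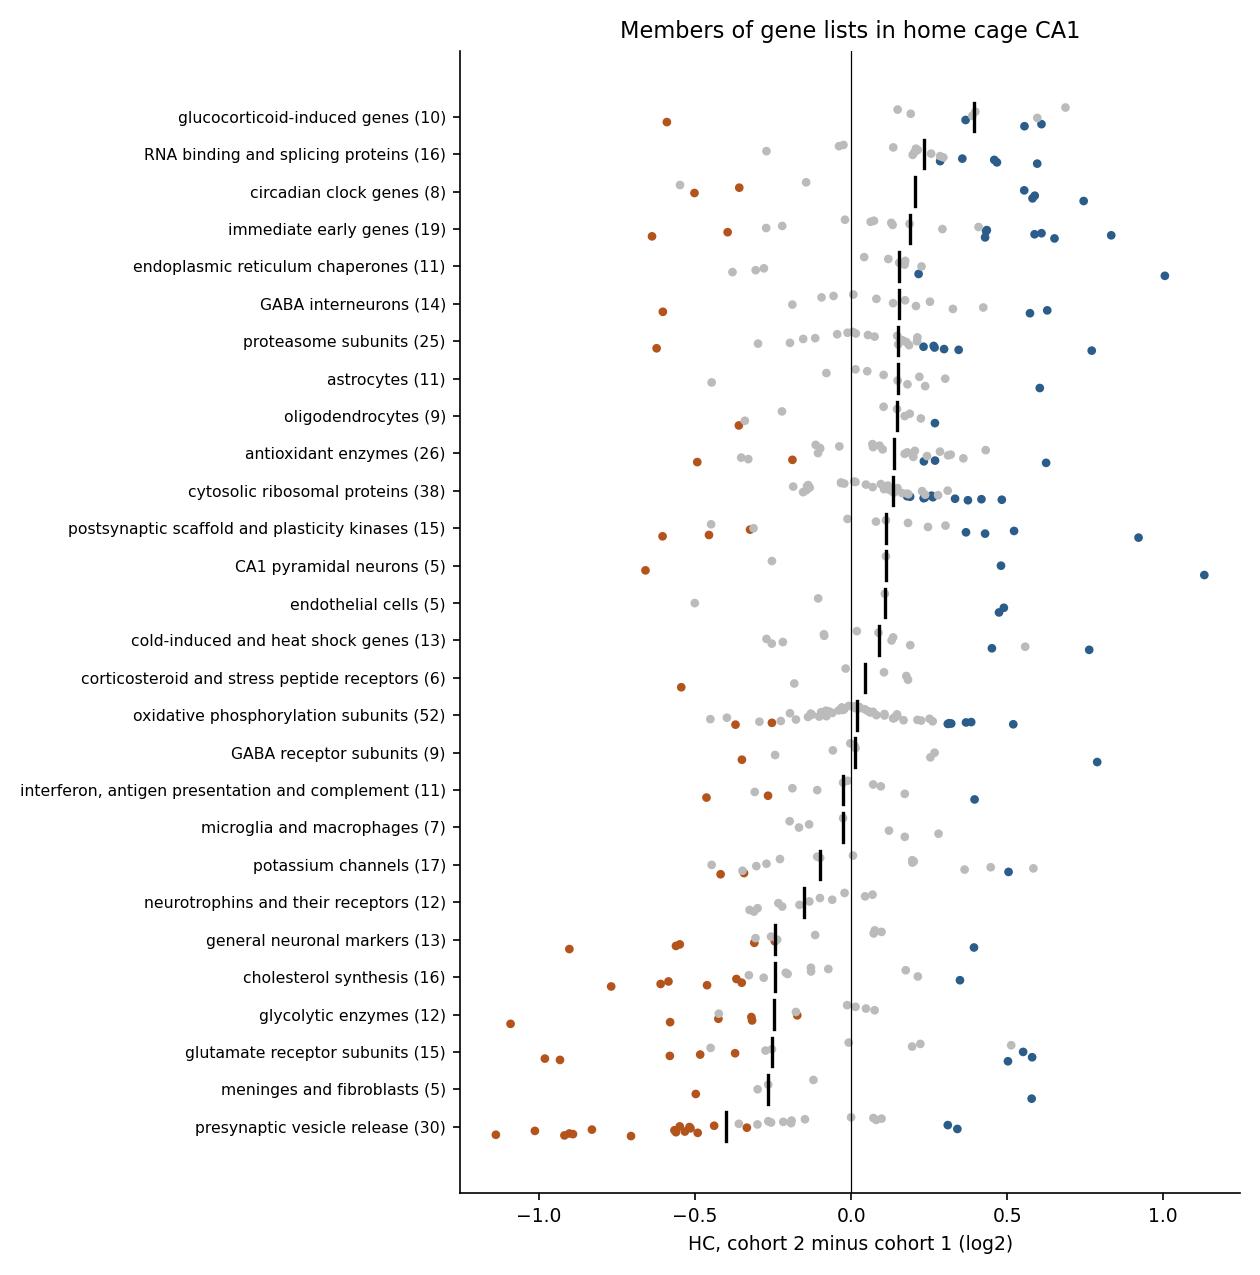
Difference between HC of cohort 2 and HC of cohort 1 (log2) for each tested member of the lists with at least 5 tested genes, with the number tested in parentheses. Blue points were higher and brown points lower at an adjusted p under 0.05, grey points did not pass, and black bars are medians, from -0.40 for presynaptic vesicle release to 0.39 for glucocorticoid-induced genes.

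Most of the tested clock genes differed between HC animals of the cohorts. The repressors Per2, Bhlhe40 and Bhlhe41, the last 2 also known as Dec1 and Dec2, and the nuclear receptor Nr1d2 were higher in cohort 2. Tef, a PAR bZIP activator that acts on D-boxes, and the PER kinase Csnk1d were lower. These were 6 of 8 tested, against 29.7% of all genes, and the median difference was 0.21. Promoters of 4 of them are shown because E-box and D-box elements are the sites through which clock factors and PAR bZIP factors act. They are RefSeq sequences of the GRCr8 build, from upstream of the start to just past it, in the direction of transcription, with the E-box (CACGTG) or D-box (TTATGTAA) in capitals.
Bhlhe40, chr4:143174200-143174499, plus strand: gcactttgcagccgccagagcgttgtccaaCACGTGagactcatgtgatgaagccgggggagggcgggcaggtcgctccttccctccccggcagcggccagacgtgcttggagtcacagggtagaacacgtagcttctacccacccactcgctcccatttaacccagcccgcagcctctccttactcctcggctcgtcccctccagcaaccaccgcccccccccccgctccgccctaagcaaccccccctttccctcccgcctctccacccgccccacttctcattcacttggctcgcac
Bhlhe41, chr4:180569306-180569605, minus strand: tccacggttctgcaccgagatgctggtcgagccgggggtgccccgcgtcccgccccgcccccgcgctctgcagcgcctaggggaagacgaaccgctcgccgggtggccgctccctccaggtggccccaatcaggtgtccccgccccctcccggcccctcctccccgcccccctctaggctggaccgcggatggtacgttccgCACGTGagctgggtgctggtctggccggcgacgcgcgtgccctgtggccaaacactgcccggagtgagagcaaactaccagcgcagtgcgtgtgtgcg
Tef, chr7:115206577-115206876, plus strand: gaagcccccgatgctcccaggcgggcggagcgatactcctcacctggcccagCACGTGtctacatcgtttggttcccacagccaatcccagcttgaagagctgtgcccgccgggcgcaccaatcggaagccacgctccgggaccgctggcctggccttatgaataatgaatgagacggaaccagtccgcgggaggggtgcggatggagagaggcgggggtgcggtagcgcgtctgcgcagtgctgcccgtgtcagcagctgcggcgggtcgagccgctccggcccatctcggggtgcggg
Per2, chr9:99496944-99497243, minus strand: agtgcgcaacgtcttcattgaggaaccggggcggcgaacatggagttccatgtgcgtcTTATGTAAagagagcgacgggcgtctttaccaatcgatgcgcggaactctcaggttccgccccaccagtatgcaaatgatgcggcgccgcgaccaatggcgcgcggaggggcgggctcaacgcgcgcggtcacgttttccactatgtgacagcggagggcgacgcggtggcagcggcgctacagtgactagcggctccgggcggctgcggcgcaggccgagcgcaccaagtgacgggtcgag
E-boxes began 220, 48 and 198 bases before the start in Bhlhe40, Bhlhe41 and Tef, and the D-box of Per2 began 192 bases before it. On either strand, 6.65% of 27457 promoters and 9.55% of the 2242 of tested genes held the E-box letters, and 0.881% and 0.268% the D-box letters. A match describes letters and not a bound site, and Tef, with the same E-box letters as Bhlhe40, was lower where Bhlhe40 was higher. Promoters of Per2 and Nr1d2 held no CACGTG.

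The values of Per2 were 8.88, 9.01, 9.09, 9.07 and 9.18 in cohort 1 and 9.16 to 10.10 with a median of 9.88 in cohort 2. It was 1.68-fold higher in cohort 2 (adjusted p = 0.000182), and subject 6, at 9.16, was the 1 animal that overlapped cohort 1. Bhlhe41 had 11.23, 11.21, 11.39, 11.33 and 11.14 in cohort 1 and 11.57 to 12.12 with a median of 11.90 in cohort 2, with no overlap (difference 0.58 ± 0.10, adjusted p = 0.000236). For Bhlhe40 they were 10.02, 10.17, 9.90, 10.41 and 10.08 in cohort 1 and 10.06 to 11.18 with a median of 10.75 in cohort 2 (difference 0.59 ± 0.15, adjusted p = 0.00554), with subjects 6 and 17 inside cohort 1. Nr1d2 differed by 0.55 ± 0.16, Tef by -0.36 ± 0.12 and Csnk1d by -0.50 ± 0.14, each with overlap, which for Csnk1d came from subject 3 of cohort 1 at 10.60. Nr1d1, the paralog of Nr1d2, gave -0.55 ± 0.25 in the other direction and did not pass (adjusted p = 0.0969), and the PAR bZIP gene Dbp gave -0.14 ± 0.11 (adjusted p = 0.332). The call of Tef ended without any of subjects 1, 2, 4 and 5 of cohort 1 (adjusted p = 0.0588 to 0.0741), and those of Nr1d2 and Csnk1d ended without subject 2 (adjusted p = 0.0650 and 0.0613). The time of day at which each animal was killed is not in the labels used here. The paper places its corticosterone measures, shown for cohort 2 and made in trunk blood, at the circadian nadir. It gives no hour for either cohort.

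Immediate early genes were partly higher in cohort 2. Of 19 tested, 7 were higher and 2 lower, against 15.4% and 14.4% of all genes, with a median of 0.19. Without subjects 6 and 17 the counts were 8 and 2, where 37.8% of all genes passed in either direction. The 7 include Egr1, whose probe sets disagreed, and without it 6 of 18 were higher and 2 lower, with a median of 0.16. Members under the signal filter were outside these counts. Among them, by limma over all probe sets, Egr2 was higher (1.09 ± 0.20, adjusted p = 0.00143). Inhba (-0.75 ± 0.17), Atf3 (-0.48 ± 0.13) and Fosl1 (-0.56 ± 0.14) were lower (adjusted p = 0.00807, 0.0173 and 0.0114). Dusp6, a phosphatase that ends ERK signalling, had 10.62, 10.90, 10.87, 10.88 and 10.63 in cohort 1 and 10.88 to 11.75 with a median of 11.46 in cohort 2 (difference 0.65 ± 0.12, adjusted p = 0.000453), and its second probe set gave 0.61 ± 0.13. Dusp1, a related phosphatase also induced by glucocorticoids, differed by 0.61 ± 0.17, and 2 further probe sets gave 1.10 ± 0.21 and 1.33 ± 0.19. Of the 9 called immediate early genes, 7 had a promoter to search. A cAMP response element (TGACGTCA, held by 1.91% of promoters) was in 1 of these 7 and an E-box in 1, both times that of Dusp1. A CArG box (A or T bases between CC and GG, held by 1.64% of promoters) was in 1 of the 7, that of Egr1. The Dusp1 promoter is shown with its cAMP response element and its E-box in capitals, in that order.
Dusp1, GRCr8 chr10:17184603-17184902, plus strand: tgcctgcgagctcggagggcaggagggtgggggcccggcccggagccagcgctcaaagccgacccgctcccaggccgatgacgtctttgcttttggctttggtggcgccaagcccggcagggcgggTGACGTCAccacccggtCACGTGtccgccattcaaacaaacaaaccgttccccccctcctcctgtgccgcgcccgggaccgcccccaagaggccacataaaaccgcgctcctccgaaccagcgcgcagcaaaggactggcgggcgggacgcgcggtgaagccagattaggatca
The orphan receptor Nr4a2 differed by 0.59 ± 0.16, Klf10 by 0.43 ± 0.13 and Junb by 0.43 ± 0.14. Egr4 and Ier3 were lower (-0.64 ± 0.13 and -0.40 ± 0.11). Arc and Fos, which mark recently active neurons, gave 0.13 ± 0.12 and 0.073 ± 0.16 and did not pass (adjusted p = 0.425 and 0.761). Calls of Junb, Klf10 and Ier3 ended without cohort 1 subject 1 (adjusted p = 0.0865, 0.0599 and 0.0511), that of Junb also without subject 5 (0.0926), and that of Dusp1 without subject 4 (0.0543).

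Egr1, a zinc finger factor of activity dependent transcription, had 13.61, 13.78, 13.86, 13.47 and 13.60 in cohort 1 at its brightest probe set and 13.72 to 14.96 with a median of 14.73 in cohort 2. In cohort 2, 9 of the 12 animals were at 14.56 or above, and subjects 6, 14 and 17, at 13.83, 13.72 and 13.81, lay inside cohort 1. The difference was 0.83 ± 0.19 (adjusted p = 0.00299). Its 3 other probe sets past the filter did not repeat this, with 0.032 ± 0.17, 0.020 ± 0.14 and -0.67 ± 0.11, the last lower in cohort 2 (adjusted p = 0.000817 over all probe sets). No direction is given for Egr1 as a gene.

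Of 10 tested glucocorticoid-induced genes 3 were higher and 1 was lower in cohort 2, against 15.4% and 14.4% of all genes. Their median was 0.39. The transcription factor Cebpb differed by 0.56 ± 0.15 (adjusted p = 0.0102) and Errfi1, a feedback inhibitor of the EGF receptor, by 0.37 ± 0.13 (adjusted p = 0.0330). For Cebpd the brightest probe set gave -0.59 ± 0.20 (adjusted p = 0.0329) and another 0.53 ± 0.13 (adjusted p = 0.0112), so its probe sets opposed each other. The call of the first ended without 4 of the 5 cohort 1 arrays in turn (adjusted p = 0.0614 to 0.0726), and that of Errfi1 without 3 (0.0668 to 0.114). The kinase Sgk1 gave 0.60 ± 0.25 and did not pass (adjusted p = 0.0768, or 0.0245 without subject 7). Klf9 and Nfkbia gave 0.19 ± 0.10 and 0.39 ± 0.17. Of 6 corticosteroid and stress peptide receptor genes, the adrenergic receptor Adra1d was lower (-0.54 ± 0.14, adjusted p = 0.00662). The mineralocorticoid receptor Nr3c2 gave 0.11 ± 0.15 (adjusted p = 0.627), and the glucocorticoid receptor Nr3c1 was under the signal filter, with mean signals of 329.7 and 393.

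More enzymes of glycolysis and of lipid synthesis were lower than higher in cohort 2. All genes tested had 14.4% lower and 15.4% higher, and 37.8% passed in either direction without subjects 6 and 17. Of 12 glycolytic genes 6 were lower and 0 higher by limma, or 8 and 0 at an unadjusted p below 0.05, with a median of -0.25, and 7 were lower without subjects 6 and 17. The 6 that passed with adjustment were Pfkl, the hexokinase Hk1 (-0.58 ± 0.12), the phosphofructokinase Pfkm (-0.32 ± 0.074), Aldoa (-0.43 ± 0.10), the pyruvate kinase Pkm (-0.32 ± 0.088) and the enolase Eno1 (-0.17 ± 0.058), whose call ended without subject 2, 3 or 5 of cohort 1 (adjusted p up to 0.0839). Of 16 genes of cholesterol and fatty acid synthesis, 6 were lower and 1 higher, with a median of -0.24, or 7 and 1 without subjects 6 and 17. Srebf1, the transcription factor of lipid synthesis, had 10.61, 10.69, 10.68, 10.56 and 10.72 in cohort 1 and 9.57 to 10.43 with a median of 9.83 in cohort 2. It did not overlap (difference -0.77 ± 0.11, adjusted p = 0.000117). Fatty acid synthase Fasn (-0.61 ± 0.13), the desaturase Scd (-0.59 ± 0.15), squalene synthase Fdft1 (-0.46 ± 0.094) and lanosterol synthase Lss (-0.35 ± 0.081) were lower too, and the sterol oxidase Msmo1 was higher (0.35 ± 0.093). For oxidative phosphorylation 6 of 52 subunits were higher and 2 lower, with a median of 0.018, and without subjects 6 and 17 the counts were 10 and 2. Of 26 antioxidant enzymes 3 were higher, among them Mgst1 (0.63 ± 0.13), and 2 were lower, among them Sod3 (-0.49 ± 0.12), or 7 and 3 without subjects 6 and 17.

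Genes of protein and RNA metabolism had more calls upward than downward, but the share called in each list was near or below the 29.7% of all genes. Of all genes 15.4% were higher and 14.4% lower, and 37.8% passed in either direction without subjects 6 and 17. Of 38 cytosolic ribosomal proteins 10 were higher and 0 lower by limma, or 14 and 0 unadjusted, with a median of 0.14, and 14 were higher without subjects 6 and 17. The largest among the 6 with the smallest p were Rpl26 (0.48 ± 0.12) and Rpl35a (0.42 ± 0.11), and many such probe sets can bind pseudogene transcripts. Of 25 proteasome subunits 6 were higher and 1 lower, with a median of 0.15, or 8 and 1 without subjects 6 and 17. The core subunit Psma2 had 11.45, 11.74, 11.87, 11.23 and 11.59 in cohort 1 and 12.17 to 12.57 with a median of 12.35 in cohort 2 (difference 0.77 ± 0.092, adjusted p = 2.24e-05), and the interferon-induced activator Psme1 was the lower one (-0.62 ± 0.16). RNA binding and splicing proteins had 5 of 16 higher and 0 lower by limma, or 7 and 0 unadjusted, with a median of 0.24, and 7 were higher without subjects 6 and 17. Hnrnpa1, which represses splice sites, had 11.14, 11.17, 11.02, 11.18 and 11.08 in cohort 1 and 11.39 to 11.88 with a median of 11.74 in cohort 2, without overlap (difference 0.60 ± 0.081, adjusted p = 6.94e-05), and Hnrnpa2b1 differed by 0.47 ± 0.082. Heat shock and cold-induced genes had 2 of 13 higher (Hspa9, 0.76 ± 0.19, and Dnajb1, 0.45 ± 0.13), and endoplasmic reticulum chaperones 2 of 11 (Eif2ak3 and P4hb, 0.22 ± 0.071). Without subjects 6 and 17, 3 heat shock and cold-induced genes were higher, and 2 chaperones were higher and 2 lower. Without cohort 1 subject 2, at 10.72 against 11.38 to 11.63 in the other 4, Dnajb1 gave 0.29 (adjusted p = 0.0538), and P4hb ended without subject 1 or 4 (0.0931 and 0.0827).

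Markers of non-neuronal cells are given by list, and 29.7% of all genes passed the same test, or 37.8% without subjects 6 and 17. Among astrocyte markers the water channel Aqp4 was higher (0.60 ± 0.12, adjusted p = 0.000955), 10 of 11 did not pass, or 8 of 11 without subjects 6 and 17, and the list summed to 104351 to 112430 in cohort 1 and 105235 to 135359 in cohort 2. Of 9 oligodendrocyte markers Mal was higher (0.27 ± 0.10) and Sox10 lower (-0.36 ± 0.12), with sums of 73849 to 89145 and 69953 to 102021. Both calls ended without several single arrays, 10 for Mal and 3 for Sox10 (adjusted p up to 0.111 and 0.0898), and without subjects 6 and 17, 1 marker was higher and 2 lower. The precursor marker Ptprz1, a receptor phosphatase also made by astrocytes, had 10.43, 10.66, 10.42, 10.55 and 10.45 in cohort 1 and 11.05 to 11.39 with a median of 11.29 in cohort 2, without overlap. Its difference was 0.75 ± 0.075 (adjusted p = 4.26e-06), while Pdgfra, Bcan and Cspg4 of the same list did not pass. That list summed to 8421 to 9768 in cohort 1 and 10261 to 11889 in cohort 2, without overlap. Its members did not share this equally. Mean signals were 1452 and 2435 for Ptprz1 and 1796 and 2256 for Pdgfra, but 5529 and 5724 for Bcan and 533 and 556 for Cspg4. For microglia 0 of 7 markers passed by limma, with 1 of 7 (C1qb, higher) at an unadjusted p below 0.05, and sums of 27971 to 31194 and 28516 to 35047. Endothelial transporters Slc2a1 (0.47 ± 0.093) and Slco1a4 (0.49 ± 0.14) were higher, whereas Flt1, a VEGF receptor, gave -0.50 ± 0.23 and Pecam1 -0.11 ± 0.084 (adjusted p = 0.103 and 0.354). Slc2a1, with mean signals of 5794 and 8049, made up most of the list's sum, and the list summed to 8412 to 9887 and 10361 to 13436, without overlap. Of 5 meningeal genes Ptgds was higher (0.58 ± 0.095) and Igfbp2 lower (-0.50 ± 0.14). Pericyte and choroid plexus lists had 2 tested genes each and 0 calls by limma, with 0 and 1 genes (Ttr, lower) at an unadjusted p below 0.05, and Ttr passed without subject 14 (adjusted p = 0.0416). The immune list had B2m higher (0.40 ± 0.077) and 2 of 11 lower. Hemoglobin Hbb-b1 was lower (-0.43 ± 0.13, adjusted p = 0.0171, or 0.0547 without cohort 1 subject 5), 2 of 4 blood genes were lower without subjects 6 and 17, and the blood list summed to 16440 to 18665 in cohort 1 and 10298 to 18307 in cohort 2. The part of cell makeup in the differences above was not tested.

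The same contrast of cohorts was open to a check in animals that the HC comparison did not use, of which those of cohort 1 were trained as well. In 24SD animals (8 against 8) 1188 of 2696 genes (44.1%) and in 72SD animals (8 against 12) 1124 (41.7%) differed between the cohorts. Of the 414 genes higher in cohort 2 in HC, 387 (93.5%) had the same sign in 24SD and 389 (94.0%) in 72SD, and 296 and 267 passed the test there in that direction. Of the 388 lower genes, 380 (97.9%) and 384 (99.0%) had the same sign, and 314 and 311 passed. Genes called in that direction made up 21.5% and 19.7% of all genes upward and 22.6% and 22.0% downward. Passing in HC, 24SD and 72SD alike were 248 higher and 277 lower genes, and 137 genes passed in HC alone of the 3. Over the 2696 genes, which share arrays and are not replicates, differences in HC correlated with those in 24SD at r = 0.81 and in 72SD at r = 0.81. The 414 had a median difference of 0.43 among HC animals against 0.34 and 0.31 in 24SD and 72SD, and the 388 had -0.45 against -0.39 and -0.40. The HC values were chosen by the test and those of deprived animals were not, so their sizes are given side by side. Median differences of the vesicle release list were -0.34 and -0.38 in 24SD and 72SD, with 18 and 21 of 30 genes lower. For Ccnd2 the differences in 24SD and 72SD were -1.41 ± 0.14 and -1.47 ± 0.13, for Nnat -1.96 ± 0.13 and -1.78 ± 0.10, and for Rgs4 2.17 ± 0.17 and 1.91 ± 0.18.

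**Figure D4:**
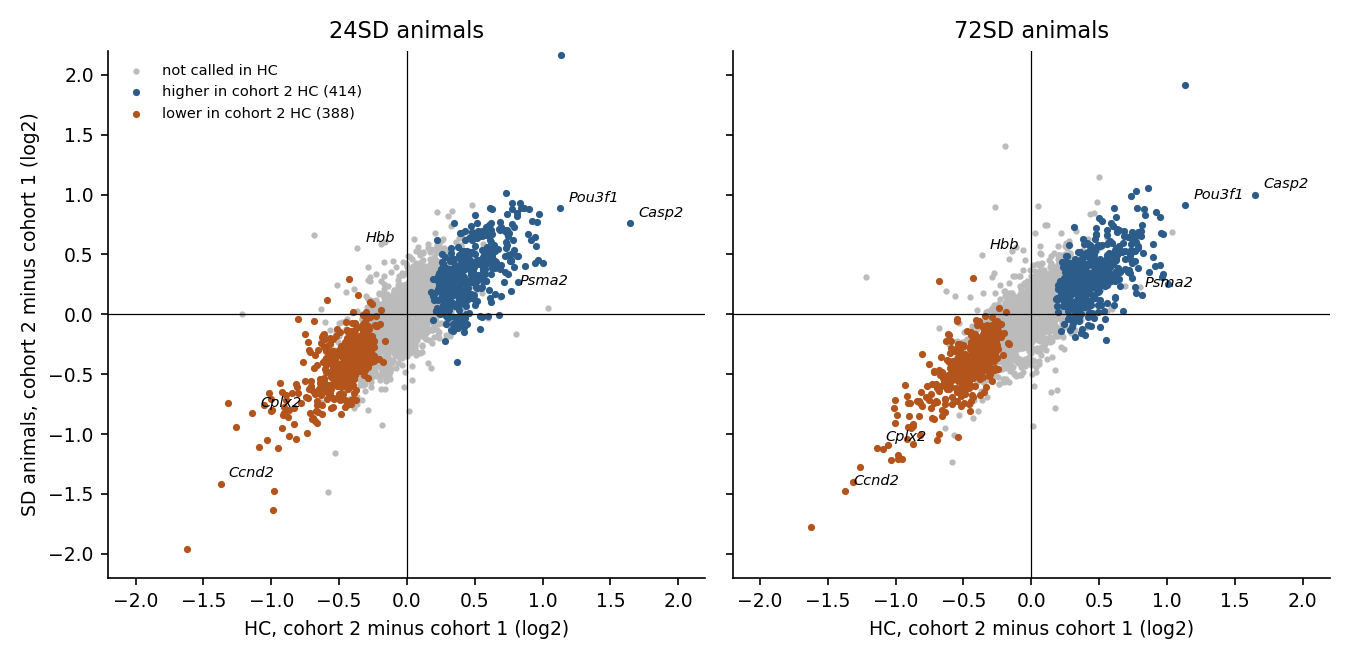
Difference between cohort 2 and cohort 1 (log2) of 2696 genes in HC animals on the x axis and in 24SD (left) or 72SD (right) animals on the y axis, which are different rats. Genes called higher in HC (blue, 414) lie above 0 on the y axis for 387 and 389 genes, and genes called lower (brown, 388) lie below it for 380 and 384.

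For 11 genes (0.408%) the cohort difference itself differed between HC and sleep-deprived animals, by limma over 53 arrays, and 282 (10.5%) had an unadjusted p below 0.05. Psma2 differed by 0.77 ± 0.092 among HC animals, but by 0.19 after 24 hours and 0.18 after 72 hours of deprivation, so that the cohort difference in HC was larger than that in deprived animals by 0.58 ± 0.10 (adjusted p = 0.00222). Cohort 1 had a mean log2 signal of 11.58 in HC, below the 12.14 and 12.10 of its 24SD and 72SD animals, whereas the 3 means of cohort 2 were close together (12.35, 12.34 and 12.28). Dync1i2 and Pgrmc1, a heme and progesterone binding membrane protein, had the same form, at 0.82 in HC against 0.27 and 0.16 in 24SD and 72SD for the first, and 0.61 against 0.13 and 0.080 for the second. Msmo1 had 0.35 in HC and -0.026 and -0.057 in 24SD and 72SD. The hemoglobin probe sets went the other way. Hbb had 13.24, 13.22, 13.56, 13.26 and 13.49 in HC of cohort 1 and 12.44 to 13.53 with a median of 12.93 in HC of cohort 2, a difference of -0.37 ± 0.16 (adjusted p = 0.0831), against 0.55 in 24SD and 0.50 in 72SD (difference in HC minus that in deprived animals -0.89 ± 0.19, adjusted p = 0.0131). Hbb-b1 gave -0.73 ± 0.16 for the same contrast, and since these paralogs are nearly identical their probe sets may report the same transcripts.

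Stress animals of cohort 1 are a treated group of that cohort and are not named as trained. Exposure, training and cohort cannot be told apart in their levels, which are given without a test. For Ccnd2 the mean log2 signal was 12.01 in HC of cohort 1, 11.93 in 24NES, 11.71 in 72NES and 10.64 in HC of cohort 2. For Pou3f1 these means were 10.66, 10.89, 10.90 and 11.79, and for Nnat 14.31, 13.86, 14.05 and 12.69. In these genes the stress animals lay by their own cohort. For Casp2 the means were 7.93, 8.78, 8.30 and 9.58, and for Dync1i2 9.63, 10.23, 10.19 and 10.45. In Casp2 the 24NES mean was nearer to HC of cohort 2, and in Dync1i2 both stress means were. Over the 24 genes named for the size of their HC difference, the 24NES mean was nearer to HC of cohort 1 for 16 and the 72NES mean for 21. Over the 802 called genes the numbers were 506 and 649. These genes were chosen for the distance between the HC groups, so these counts are a description.

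Animals of 1 cohort also differed among themselves. The median SD of a gene was 0.18 over the 5 animals of cohort 1 and 0.22 over the 12 of cohort 2, or 0.19 in cohort 2 without subjects 6 and 17. Gpd1, the glycerol phosphate dehydrogenase induced by corticosteroids, had 7.88, 7.93, 9.30, 8.42 and 9.43 in cohort 1. In cohort 2 subjects 6, 11, 12, 13, 14 and 17 lay between 10.05 and 10.67, and subjects 7, 8, 9, 10, 15 and 16 between 7.95 and 8.64, with none between. Sult1a1, a phenol sulfotransferase that is also on the glucocorticoid list, ran from 9.96 to 11.60 with a median of 10.52 in cohort 2. Its highest 4 values, 11.60, 11.34, 11.21 and 10.99, were those of subjects 11 to 14, whereas subjects 6 and 17 had 10.27 and 9.96. The cytochrome b5 gene Cyb5a varied most, with a residual SD of 1.41. Subjects 6 and 14 had 7.56 and 8.20 and subject 17 10.01, where the other 9 of cohort 2 were at 11.39 or above. Another Cyb5a probe set past the filter gave a cohort difference of 0.13 ± 0.20. The inducible nitric oxide synthase Nos2 had a residual SD of 1.20 and ran from 7.06 to 10.46 with a median of 8.73 in cohort 2. For Gstk1, subject 4 of cohort 1 had 7.35 against 11.04 to 11.40 in the other 4. The remaining genes of the 10 with the largest residual SD were Pcmtd2, Tln1, Tnfrsf1a, Adrb3, Nppa and Polr2a, at 0.82 to 1.02. Of the 10, Polr2a passed the cohort test with all arrays (-1.32 ± 0.39, adjusted p = 0.0151). Pcmtd2 passed without subject 17 (1.28, adjusted p = 0.0102) and without subjects 6 and 17 (1.24, adjusted p = 0.0135), and Nos2 passed without both (-1.45, adjusted p = 0.0481).

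**Figure D5:**
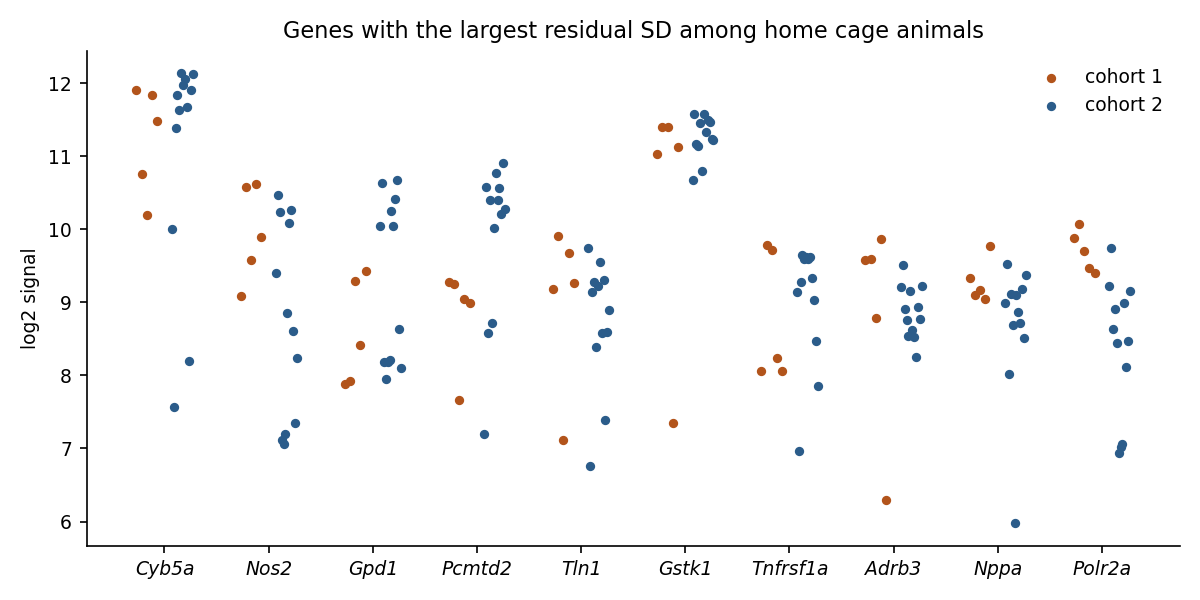
Log2 signal of the 10 genes with the largest residual SD within cohort, with 1 point per HC rat, cohort 1 in brown (n = 5) and cohort 2 in blue (n = 12). In cohort 2, Gpd1 has 6 rats between 10.05 and 10.67 and 6 between 7.95 and 8.64, and Cyb5a has subjects 6 and 14 at 7.56 and 8.20.

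Probe sets of 1 gene did not always tell the same. Of 297 further probe sets past the filter for called genes, 227 had the same sign as the brightest one, 96 passed in the same direction over all probe sets, and 13, of 12 genes, passed in the opposite direction. Besides Egr1 and Cebpd, these included both other probe sets of Cx3cl1 (the chemokine fractalkine), the adiponectin receptor Adipor2, the kinases Rock2 and Srpk2 and the tropomyosin Tpm1. The share of probe sets named as built on expressed sequence tags was 50.5% among genes higher in cohort 2, 22.9% among genes lower and 43.6% among genes not called. Median log2 signals of these classes were 10.74, 10.71 and 10.61.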

How the data were processed

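CA1 RNA of each of 17 HC rats was hybridised as biotin-labelled cRNA to 1 Affymetrix RGU34A chip. The deposited values are intensities, namely MAS5 signals that the authors scaled per array, and the study's own analysis standardized each gene within cohort, which the deposited values are not. MAS5 is also named in the submitters' processing notes, with no version. Of 8799 probe sets, 59 were controls, and 7006 had 1 gene symbol, 308 several and 1426 none. Signals were floored at 1 and log2 transformed. Probe sets with 1 symbol in the upper 50% of mean signal over 69 arrays were kept, and the brightest per gene gave 2696 genes. Symbols came from GEO's platform annotation, and 99.7% matched RefSeq.

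HC of cohort 2 minus HC of cohort 1 was tested with limma 3.58.1 in R 4.3.3 (lmFit, eBayes, Benjamini-Hochberg, threshold 0.05), and the same in 24SD and 72SD. The scripts were tested on simulated data. Animals were taken as independent, although rats were housed 2 per cage and cage mates are not identified. Named genes were the 12 with the largest difference in each direction without overlap and with the same sign in 24SD and 72SD, 2 to 6 members of each list with the smallest p, called clock, immediate early and glucocorticoid genes, the 10 with the largest residual SD, and 6 with the smallest p for HC against deprived. Genes added after their values were seen were Arc, Cplx1, Dbp, Fos, Klf9, Nnat, Nptx1, Nr1d1, Nrcam, Pcmt1, Rgs4, Snap25, Stx1a, Sult1a1, Suox and Syt1. The members, lists and rules were chosen with earlier results of these data known. The hexokinase ratio and 5S ribosomal RNA were array measures added later. Promoters are RefSeq entries of GRCr8. Normalization, floor, filter, probe sets, eBayes, test and left-out arrays were varied. The number of arrays limits the precision. Figures were drawn with matplotlib 3.10.9.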

Additional observations from a re-analysis of the deposited data

Results flagged for a closer look

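Of 147 genes named with values, 15 had 1 array of the 5 of cohort 1 far from the other 4. Chance alone gives about 1 such gene in 20, but 10 of the genes were named for their scatter within cohort and 3 of these are among the 15, against 12 of the other 137. Subject 3 was the one apart for 7 genes. Its log2 signals were 6.86 against 8.96 to 9.20 in the other 4 for Eif2ak3, 7.12 against 9.18 to 9.91 for Tln1, and 7.66 against 8.99 to 9.28 for Pcmtd2. It was also low for Slco1a4 (9.92 against 10.46 to 10.64), Syn1 (13.17 against 13.60 to 13.69) and Prkcd (9.36 against 9.64 to 9.75), and high for Homer1 (11.92 against 11.58 to 11.67). Subject 2 was apart for 5 genes. It was low for Eif3m (7.92 against 8.89 to 9.27), Rabep2 (7.45 against 8.66 to 9.05), Dbp (11.09 against 11.58 to 11.71) and Dnajb1 (10.72 against 11.38 to 11.63), and high for Egr4 (11.36 against 10.92 to 11.04). Subject 4 was low for Gstk1 (7.35 against 11.04 to 11.40) and high for Flt1 (9.86 against 9.21 to 9.35). Subject 5 was low for Kcnj4 (9.06 against 9.24 to 9.31). Among array measures, the 90th percentile of signal was 4726 in subject 3 against 4798 to 4821, and the 5S ribosomal RNA signal was 7.79 in subject 5 against 6.69 to 6.89.

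For 11 genes the cohort difference in HC animals differed from that in sleep-deprived animals. The difference in HC minus that in deprived animals was 0.58 ± 0.10 for Psma2, 0.60 ± 0.12 for Dync1i2, 0.50 ± 0.10 for Pgrmc1 and 0.40 ± 0.10 for Gria2. It was 0.39 ± 0.089 for the axonal adhesion molecule Nrcam, 0.39 ± 0.081 for Msmo1, 0.37 ± 0.086 for sulfite oxidase (Suox) and 0.32 ± 0.077 for Pcmt1, which repairs damaged protein residues. Nptx1, a secreted pentraxin that gathers AMPA receptors, gave 0.89 ± 0.21, with 0.016 in HC, -0.81 in 24SD and -0.94 in 72SD. Hbb and Hbb-b1 gave -0.89 ± 0.19 and -0.73 ± 0.16. By limma, adjusted p for these 11 ran from 0.00222 to 0.0489.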

How the results depend on the processing

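The count of 802 genes that differed between the cohorts in HC ranged from 623 to 1018 under the limma alternatives run on 1 probe set per gene, left-out arrays included. It was 823 with quantile normalization, 780 with median centring, 839 with cyclic loess, 925 with no signal filter and 712 with the upper 40% of signals. A floor of 50, robust eBayes and eBayes with a trend gave 802, 801 and 815, and a fit over 53 arrays gave 932. The methods' analysis of variance without and with removal of outlying values called 1104 and 1257 genes unadjusted, and 788 and 1012 after Benjamini-Hochberg adjustment. With every probe set tested, 1489 probe sets were called, 803 higher and 686 lower. Over 3 times as many features were tested there, so the share called was below the 29.7% of genes. The same alternative gave 2412 in 24SD and 2201 in 72SD, again smaller shares than the 44.1% and 41.7% of genes. With median centring 5 genes instead of 11 had unequal differences in HC and deprived animals, of which the cause was not tested. Leaving out 1 array of cohort 1 gave 623 to 807 genes, and 1 of cohort 2 gave 742 to 919. Leaving out subjects 6 and 17, chosen after seeing the data, gave 1018.

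Some list medians turned sign or moved, and that of the 15 glutamate receptors turned from -0.25. With no signal filter the median was -0.016 for CA1 markers, -0.74 for CA3 markers, 0.088 for microglia, -0.018 for corticosteroid receptors and 0.068 for glutamate receptors. With the upper 40% it was 0.33 for precursors, 0.48 for endothelial cells, 0.24 for choroid plexus and -0.018 for corticosteroid receptors, and with cyclic loess -0.014 for GABA receptors. Without single cohort 1 arrays the medians ran from -0.029 to 0.032 for GABA receptors, -0.0075 to 0.046 for oxidative phosphorylation, -0.057 to 0.014 for microglia and -0.016 to 0.073 for corticosteroid receptors. They ran from -0.10 to 0.0047 for the interferon list, -0.14 to 0.0085 for potassium channels and 0.0021 to 0.11 for heat shock genes. The difference in median signal ran from -6.73 to 3.04, that in the 90th percentile from -11.1 to 12.7, and that in the spiked BioB control from -0.41 to -0.19, with p = 0.0170 and 0.0456 by the exact test without subjects 1 and 2.

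Of the 147 genes named with values, 21 of those called lost the call without some single array. Directions turned in a few that had not passed. Nptx1 gave -0.010 with cyclic loess and -0.12 without subjects 6 and 17, Cyb5a 0.13 with the analysis of variance with removal and 0.26 without both, and Adrb3 -0.060 without both. Without single arrays, values ran from -0.057 to 0.074 for Nptx1, -0.45 to 0.13 for Cyb5a, -0.59 to 0.30 for Adrb3, -0.0098 to 0.090 for Bcan, -0.15 to 0.26 for Syt1 and -0.034 to 0.16 for Fos, and Adrb3 without subject 5 had adjusted p = 0.0382.

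No paired analysis was possible because each subject number occurs once and the groups share none. MAS5 signals near background limit precision, and 5 arrays in cohort 1 limit every comparison.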
